A study of Homo sapiens with 6 samples.

Results

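The nuclear-encoded subunits of the respiratory chain and ATP synthase were examined in MDA-MB-231 cells with and without a hairpin against PUS1. Members were chosen by gene symbol, from the subunit names of complex I (NDUFA, NDUFB, NDUFC, NDUFS and NDUFV followed by a number), complex II (SDHA to SDHD), complex III (UQCR names), complex IV (10 COX names) and complex V (all names that begin with ATP5). Of 60605 genes in the table, 129 matched, and 78 of these were protein-coding genes. They comprised 36 genes of complex I, 4 of complex II, 8 of complex III, 11 of complex IV and 19 of complex V. NDUFA4 was counted with complex IV, where its protein is known to sit in spite of its name. The other 51 matches were pseudogenes of ATP synthase subunits, and 38 of them were listed at 0 in every library. The filter on low counts kept 77 of the protein-coding genes and 1 pseudogene, ATP5MFP2, which had 62 counts over all libraries. ATP5MGL, a paralog of ATP5MG, was listed at 0 and was not tested. Subunits with other names, such as NDUFAB1 and CYC1, were outside the rule and are described among the related genes.

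MDA-MB-231 is a triple-negative breast cancer cell line with a mesenchymal-like character. The PUS1 knockdown group (shPUS1, n = 3) carried a short hairpin RNA against PUS1 and the control group (shControl, n = 3) a control shRNA, both from lentiviral vectors, and no other allele or agent separates them in the labels. The labels call the replicates biological, and the study's methods do not say whether they came from separate infections, so the p-values measure the spread between these libraries. Poly(A) RNA was sequenced, and the library totals were 15003203, 19625998 and 14241505 estimated counts for shControl and 18233530, 18335152 and 17109464 for shPUS1. Values below are given as TMM-scaled CPM (counts scaled to the library total and to edgeR's TMM factor), as FPKM (counts scaled to the listed exonic length and the library total) where genes are set beside each other, or as log2 fold changes of shPUS1 relative to shControl.

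The targeted gene, PUS1, encodes a pseudouridine synthase that modifies tRNAs of the cytosol and of mitochondria. It was at 2.57, 4.66 and 2.18 FPKM in shControl and at 1.13, 0.95 and 0.93 FPKM in shPUS1, without overlap. PUS1 had a log2 fold change of -1.62 ± 0.32 (SE; adjusted p = 0.0462 by edgeR's quasi-likelihood test). With shControl replicate 2 left out it was -1.19, with an adjusted p of 0.00311 by the same test. The call was lost when any 1 of 4 other libraries was left out (shControl replicate 1 or any shPUS1 replicate, adjusted p of up to 0.253 by edgeR) and with the replicate number as a block (adjusted p = 0.0969). The labelled cell type was checked on markers. All 7 mesenchymal-like markers (VIM, CD44, EGFR, AXL, CAV1, ZEB1 and MSN) were above 1 FPKM in every library. Their summed level was 956.9, 1168 and 985.5 FPKM in shControl and 814.2, 771.5 and 804 FPKM in shPUS1, without overlap. VIM, the most abundant, was at 443.1, 497.8 and 399.9 FPKM in shControl and at 309.3, 286.1 and 338.6 FPKM in shPUS1, and AXL and CD44 were also lower in every shPUS1 library than in any shControl library. The groups of the other 4 overlapped, and EGFR (19.33, 20.6 and 32.53 against 31.68, 31.11 and 26.65 FPKM), ZEB1 and MSN had higher means in shPUS1. Of 9 luminal markers, ESR1, PGR, FOXA1 and CDH1 stayed at or under 0.18 FPKM. GATA3, EPCAM and ERBB3 lay between 0.65 and 3.19 FPKM, and the keratins KRT8 and KRT18 lay between 36.6 and 74.0 FPKM. The summed level of the luminal markers was 126.4, 137 and 111.4 FPKM in shControl and 113.6, 110.4 and 116 FPKM in shPUS1. Of 7 markers of blood, endothelial and stromal cells, PTPRC, CD3E and DCN were at or near 0 and only PDGFRB exceeded 1 FPKM, with 4.67, 1.32 and 5.63 in shControl and 7.56, 8.29 and 6.67 in shPUS1. The summed level of these 7 markers was 5.42, 1.53 and 6.58 FPKM in shControl and 8.16, 8.96 and 7.23 FPKM in shPUS1, and the part of the 3 marker lists in the results was not tested.

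The library shControl replicate 2 stood apart from the others. Across genes, the log2 CPM of this library correlated with shControl replicates 1 and 3 at 0.951 and 0.952, where replicates 1 and 3 correlated at 0.981 and pairs of shPUS1 libraries at 0.987 to 0.991. Named values that it moved by over 1.5 times, or turned in sign, are given with and without it.

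Complexes I, III and IV pass electrons from NADH and ubiquinol to oxygen and pump protons across the inner mitochondrial membrane, complex II feeds in electrons from succinate without pumping, and complex V uses the proton gradient to make ATP. All but complex II are assembled from subunits of both genomes, so nuclear genes and mitochondrial DNA have to supply matching parts. Transcription of the nuclear genes is known to draw on NRF1, ETS-family factors such as GABP, and YY1, with PPARGC1A as a coactivator.

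Promoter sequences show how these genes differ in those elements. RefSeq (GRCh38.p14) held promoters for 64 of the 78 protein-coding members, each from 250 bases before the start to 50 bases of transcript. GCGCATGC, the core of an NRF1 element, occurred on either strand in 13 of the 64 (20.3%), against 3.27% of all promoters in the table and 5.38% of those of tested genes. The ETS-family letters CCGGAAGT occurred in 10 members (15.6%, against 4.44% and 8.92%). AAGATGGC, a YY1 element, occurred in 11 members (17.2%, against 3.03% and 5.39%). The NRF1 core can match both strands at nearly the same place, and none of the motifs contains another. At least 1 of the 3 was found in 28 members (43.8%, against 9.94% and 18% of the promoters of tested genes). The 4 promoters below belong to members on which the results turn: NDUFA7, with the most negative fold change, the c subunit genes ATP5MC2 and ATP5MC1, and NDUFS1, whose values lay higher in shPUS1. They run from 175 bases before the start base to 24 bases after it, on the gene's own strand, and capitals mark a motif match.
NDUFA7 (chr19:8321351-8321550, minus strand): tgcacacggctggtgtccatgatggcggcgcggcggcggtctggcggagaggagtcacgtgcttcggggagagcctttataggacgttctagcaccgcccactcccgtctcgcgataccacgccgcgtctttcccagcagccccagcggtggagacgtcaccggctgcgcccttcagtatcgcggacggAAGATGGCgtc
ATP5MC2 (chr12:53676059-53676258, minus strand): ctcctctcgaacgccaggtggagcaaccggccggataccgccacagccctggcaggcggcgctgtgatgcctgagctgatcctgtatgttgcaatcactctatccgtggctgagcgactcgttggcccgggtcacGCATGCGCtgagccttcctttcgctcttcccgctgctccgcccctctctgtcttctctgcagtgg
ATP5MC1 (chr17:48892612-48892811, plus strand): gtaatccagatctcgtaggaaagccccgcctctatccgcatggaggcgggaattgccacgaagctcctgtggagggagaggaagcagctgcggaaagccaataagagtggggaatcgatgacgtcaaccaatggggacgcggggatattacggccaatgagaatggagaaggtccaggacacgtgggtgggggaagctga
NDUFS1 (chr2:206159420-206159619, minus strand): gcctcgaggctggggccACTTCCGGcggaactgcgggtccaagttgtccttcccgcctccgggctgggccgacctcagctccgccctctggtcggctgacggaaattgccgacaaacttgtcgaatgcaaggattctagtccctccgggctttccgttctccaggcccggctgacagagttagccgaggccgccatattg
The capitals are the YY1 letters in NDUFA7, the reverse complement of the NRF1 core in ATP5MC2 and the reverse complement of the ETS letters in NDUFS1. The ATP5MC1 window holds none of the 3. A match in letters is a description and was not tested against binding.

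Per length, the subunit mRNAs spread over a wide range. The member with the highest mean over the 6 libraries was COX8A, a small structural subunit of complex IV, at 253.7 FPKM. ATP5F1B, the catalytic beta subunit of ATP synthase, followed at 227.2 FPKM. UQCRH, the hinge protein of complex III, was at 159.1 FPKM and NDUFS5, an accessory subunit of complex I, at 143.7 FPKM. The lowest was NDUFB9 of complex I at 2.08 FPKM. Complex IV had the highest median, 40.3 FPKM, followed by complex II at 39.1, complex III at 27.9, complex V at 22.6 and complex I at 15.96 FPKM. The listed lengths that enter FPKM add the exons of all annotated transcripts: 16591 bases for NDUFB9 and 494 bases for COX8A. By complex, the median listed length was 2592 bases for I, 2557 for II, 2652 for III, 1922 for IV and 2770 for V. The part of length in the order of the complexes was not tested.

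**Figure D1:**
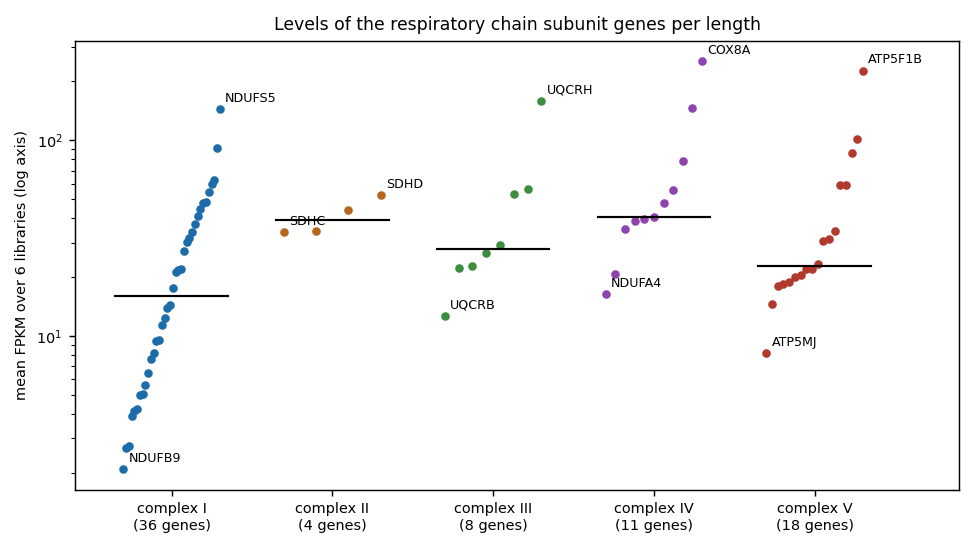
Mean FPKM over the 6 libraries (vertical, log axis) of each tested protein-coding subunit gene, by complex, with a line at the median of the complex and the lowest and highest gene named. The genes run from 2.08 FPKM (NDUFB9) to 253.7 FPKM (COX8A), and complex I holds the lowest values.

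In the comparison of shPUS1 with shControl, most subunit genes had small negative log2 fold changes, and none passed the test. The log2 fold change was negative for 72 of the 77 protein-coding members (93.5%) and for 52.7% of all 14748 genes tested. The median over the members was -0.23, with quartiles of -0.37 and -0.13, where the median of all genes was -0.03. By edgeR's quasi-likelihood test with adjustment over all genes, 0 members were lower at an adjusted p under 0.05 (0.841% of all genes tested were) and 0 were higher (1.74% of all genes). At an unadjusted p under 0.05, 13 members (16.9%) were lower, beside 12.8% of all genes, and 0 were higher, beside 12.6%. Groups that did not overlap on the CPM scale were found for 17 members (22.1%) with shPUS1 lower, beside 17.3% of all genes, and for 1 member (1.30%) with shPUS1 higher, beside 18.8% of all genes. The lower count depended on the scaling. It was 30 members (39.0%) on deposited FPKM, beside 19.4% of all genes, and 31 (40.3%) on library totals without TMM, beside 19.7%. On both, 1 member was apart in the other direction, beside 16.6% and 16.9% of all genes. With shControl replicate 2 left out on the CPM scale, 17 members (22.1%) were apart with shPUS1 lower, beside 25.7% of all genes, and 4 (5.195%) with shPUS1 higher, beside 25.3%. With 3 libraries against 3, an exact permutation test of a single gene cannot go below p = 0.1.

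The members took 0.76%, 0.811% and 0.66% of all counts in shControl and 0.635%, 0.628% and 0.674% in shPUS1. Their summed FPKM was 3355, 3723 and 2966 in shControl and 2795, 2788 and 2969 in shPUS1. On both scales shControl replicate 2 was the highest library and shControl replicate 3 lay within the range of the shPUS1 libraries, so the groups overlapped. In bulk RNA, less of an mRNA per cell and fewer cells that express it cannot be told apart.

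Without shControl replicate 2, edgeR's test called 7 members lower (9.09%, beside 8.79% of all genes tested) and 0 higher (beside 9.8% of all genes). Among these were NDUFA7, NDUFC1, NDUFB3, NDUFV1 and NDUFA10 of complex I and ATP5MC2 of complex V. The same 7 were lower by DESeq2 on all 6 libraries (9.09%, beside 5.56% of all genes) and 9 were lower by limma's voom with sample weights (11.7%, beside 9.48% of all genes), which added NDUFA5 and NDUFB5. Neither DESeq2 nor voom called a member higher (0 of 77 by each, beside 7.12% and 11.5% of all genes). Without this library, members were thus called lower about as often as genes in general. The median over the 77 members without shControl replicate 2 was -0.11, and 64 of them (83.1%) were negative, beside 52.2% of all genes and a median of -0.02.

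**Figure D2:**
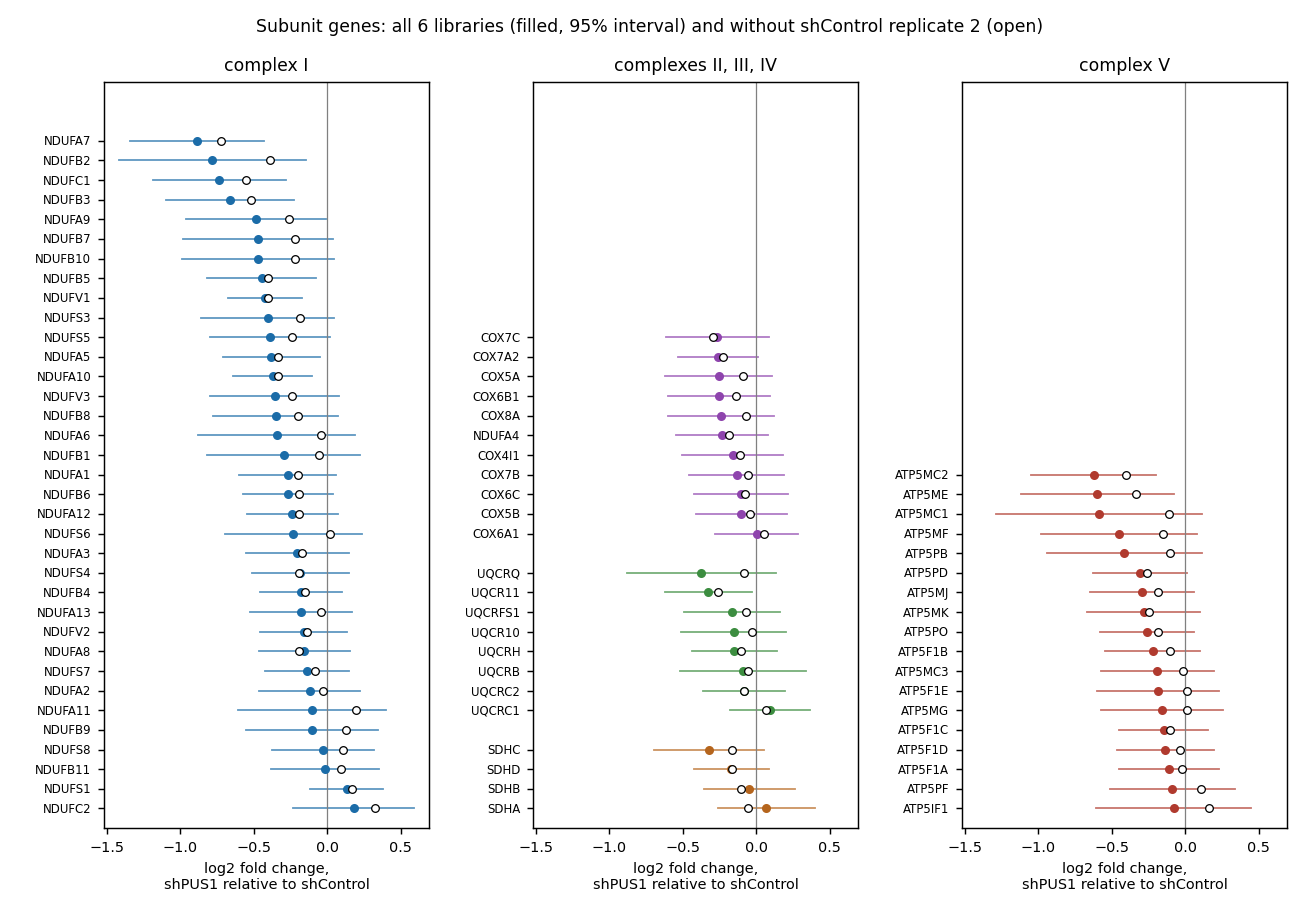
Log2 fold change of shPUS1 relative to shControl (horizontal) for tested protein-coding subunit genes, by complex, with all 6 libraries (filled points, 95% intervals from edgeR) and without shControl replicate 2 (open points). Most filled points lie left of 0, from -0.88 for NDUFA7 to 0.18 for NDUFC2, and most open points lie nearer to 0.

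Complex I, the NADH dehydrogenase, had the most negative median of the complexes, -0.28 over 36 genes, of which 34 were negative. Without shControl replicate 2 the median was -0.19 and 29 were negative. The 7 core subunits encoded in the nucleus, which carry the flavin and the iron-sulfur clusters or form the quinone site, had a median of -0.16. The 29 accessory subunits had a median of -0.30, from -0.88 to 0.18, and of -0.19 without shControl replicate 2. At an unadjusted p under 0.05, 10 genes of complex I (27.8%) were lower, beside 12.8% of all genes, and 0 were higher. The groups of 10 genes (27.8%) did not overlap with shPUS1 lower, beside 17.3% of all genes, and those of 1 gene (2.78%) with shPUS1 higher, beside 18.8%.

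NDUFV1 (ENSG00000167792, chromosome 11, 67605653 to 67612554) encodes the subunit that binds NADH and the flavin. It was at 131.3, 133.0 and 119.7 CPM in shControl and at 95.4, 94.3 and 96.8 CPM in shPUS1. The groups were apart, and shControl replicate 2 lay beside replicate 1. This gave a log2 fold change of -0.42 ± 0.11 (SE; 95% interval -0.67 to -0.17, adjusted p = 0.0747 by edgeR). Without shControl replicate 2 it was -0.40, with an adjusted p of 0.0196, and DESeq2 gave an adjusted p of 0.00950 with all libraries.

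NDUFS1, the largest core subunit, which carries iron-sulfur clusters, was the only member whose groups were apart in the other direction. It was at 136.3, 152.9 and 144.2 CPM in shControl and at 159.9, 156.5 and 158.7 CPM in shPUS1. NDUFS1 had a log2 fold change of 0.13 (95% interval -0.12 to 0.38, adjusted p = 0.462 by edgeR), so the gap between groups was small beside the error of the fit. With a trend on gene length (below) removed, its log2 fold change was 0.002 (adjusted p = 0.992 by edgeR). Among the core genes, NDUFS3, NDUFS7, NDUFS8 and NDUFV2 had log2 fold changes of -0.41, -0.14, -0.03 and -0.16. These were -0.18, -0.09, 0.11 and -0.13 without shControl replicate 2, so that NDUFS8 turned in sign.

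Among the accessory subunits, NDUFA7 (ENSG00000267855, chromosome 19, 8308768 to 8321375) had the smallest adjusted p of all members. It was at 12.2, 16.8 and 12.1 CPM in shControl and at 7.85, 6.84 and 7.496 CPM in shPUS1, from 125 to 321 counts per library. The highest shPUS1 value stayed under the lowest shControl value. NDUFA7 had a log2 fold change of -0.88 ± 0.20 (SE; 95% interval -1.34 to -0.43, adjusted p = 0.0575 by edgeR), and -0.72 without shControl replicate 2 (adjusted p = 0.0104). Of the 100-base stretches of its transcripts, 49.6% also occur in a readthrough gene on the same strand, AC010323.1. With the counts of that gene added, the log2 fold change was -0.98 (adjusted p = 0.0586 by edgeR).

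NDUFC1 (ENSG00000109390, chromosome 4, 139266880 to 139302551) was at 15.3, 23.5 and 17.9 CPM in shControl and at 12.02, 10.8 and 11.2 CPM in shPUS1. NDUFC1 had a log2 fold change of -0.73 ± 0.19 (SE; adjusted p = 0.08004 by edgeR), and -0.55 without shControl replicate 2 (adjusted p = 0.0212). NDUFB3 (ENSG00000119013, chromosome 2, 201071433 to 201085750) was at 33.4, 39.3 and 25.4 CPM in shControl and at 20.1, 19.0 and 22.8 CPM in shPUS1. The groups of both genes were apart, and shControl replicate 2 was the highest library for each. The log2 fold change of NDUFB3 came to -0.66 ± 0.19 (SE; adjusted p = 0.0903 by edgeR), and -0.52 without that library (adjusted p = 0.0396).

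NDUFA10 (ENSG00000130414, chromosome 2, 239892450 to 240025743) had a narrow spread in both groups. It was at 59.3, 63.9 and 57.3 CPM in shControl and at 48.1, 44.8 and 46.6 CPM in shPUS1. NDUFA10 thus had a log2 fold change of -0.37 ± 0.12 (SE; adjusted p = 0.110 by edgeR), and -0.33 without shControl replicate 2 (adjusted p = 0.0396). NDUFB2 showed how far that library can carry a value. It was at 34.4 CPM in shControl replicate 2, with 18.7 and 16.7 CPM in the other shControl libraries and 12.9 to 14.2 CPM in shPUS1. NDUFB2 had a log2 fold change of -0.78 with all libraries and -0.39 without that one (adjusted p = 0.135 and 0.0541 by edgeR). NDUFA5 and NDUFB5, called by voom only, had log2 fold changes of -0.38 and -0.45. At the other end, NDUFC2 was at 104.8, 124.5 and 81.7 CPM in shControl and at 110.7, 107.3 and 134.7 CPM in shPUS1, with overlap and a log2 fold change of 0.18, and 0.33 without shControl replicate 2.

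**Figure D3:**
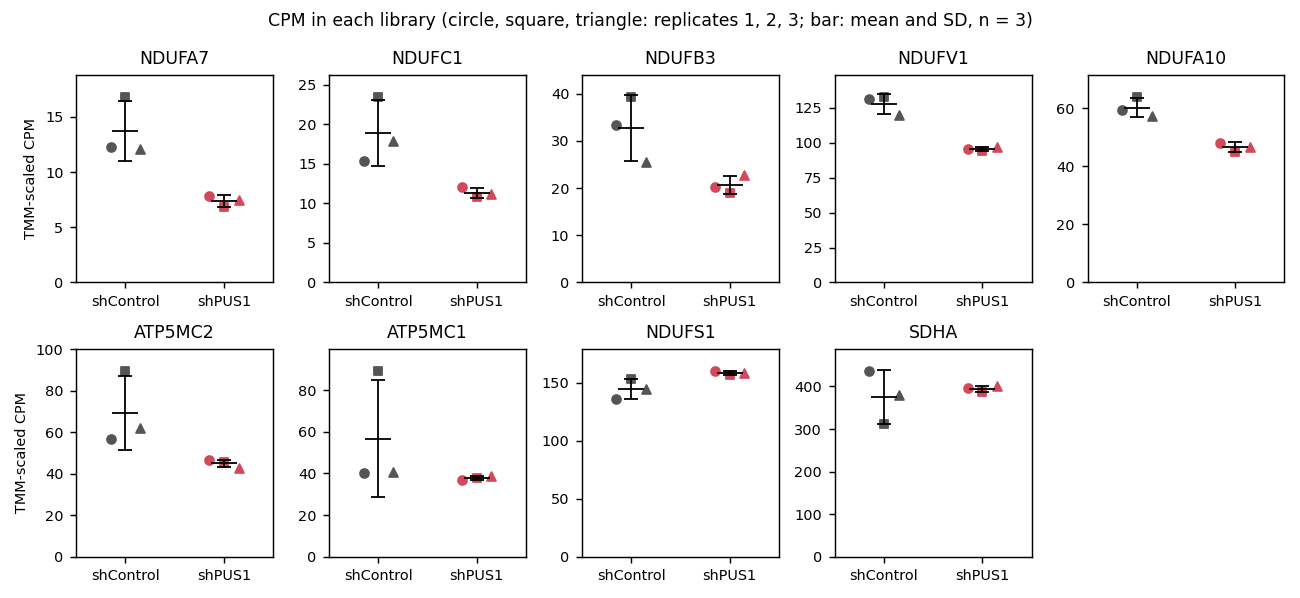
TMM-scaled CPM (vertical, from 0) of 9 subunit genes in each library, shControl in grey and shPUS1 in red, with circle, square and triangle for replicates 1, 2 and 3 and bars for the mean and SD (n = 3). In the 6 genes from NDUFA7 to ATP5MC2 the groups are apart; in ATP5MC1 the distance rests on shControl replicate 2 at 89.1 CPM, NDUFS1 lies higher in shPUS1, and the groups of SDHA overlap.

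Complex II, succinate dehydrogenase, is the 1 complex encoded wholly in the nucleus, and its genes had a median log2 fold change of -0.11. With single libraries left out, this median ran from -0.16 to -0.05. SDHA, the flavoprotein, was at 436.0, 310.7 and 379.6 CPM in shControl and at 395.2, 387.2 and 400.1 CPM in shPUS1. The shPUS1 values lay inside the shControl range, and shControl replicate 2 was the lowest library, not the highest. SDHA had a log2 fold change of 0.07 (95% interval -0.26 to 0.40, adjusted p = 0.781 by edgeR) and -0.06 without that library.

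SDHB, the iron-sulfur subunit, was at 90.3, 75.9 and 77.3 CPM in shControl and at 74.8, 72.8 and 88.1 CPM in shPUS1. Its groups overlapped, with a log2 fold change of -0.05 (95% interval -0.36 to 0.26) and -0.10 without shControl replicate 2. The anchors SDHC and SDHD hold the complex in the membrane. SDHC was at 68.5, 87.6 and 60.2 CPM in shControl and at 60.8, 59.6 and 52.7 CPM in shPUS1, with overlap, and its log2 fold change was -0.32 (95% interval -0.70 to 0.05) and -0.16 without shControl replicate 2. SDHD was at 164.0, 158.8 and 143.8 CPM in shControl and at 137.8, 138.9 and 137.9 CPM in shPUS1. Only SDHD had groups that were apart, with a log2 fold change of -0.17 (95% interval -0.43 to 0.09, adjusted p = 0.361 by edgeR).

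Complex III, which moves electrons from ubiquinol to cytochrome c, had a median of -0.15 over 8 genes and -0.07 without shControl replicate 2. UQCR11, a small subunit, had the smallest adjusted p. It was at 64.7, 69.9 and 55.9 CPM in shControl and at 51.1, 51.6 and 49.3 CPM in shPUS1, with the groups apart. UQCR11 had a log2 fold change of -0.33 ± 0.13 (SE; adjusted p = 0.166 by edgeR). The value was -0.14 (adjusted p = 0.486) when the counts of a same-strand readthrough gene, AC005943.1, were added. The core proteins UQCRC1 and UQCRC2 had log2 fold changes of 0.10 and -0.08, and UQCRFS1, the Rieske iron-sulfur protein, had -0.16 with all libraries and -0.07 without shControl replicate 2. UQCRQ had -0.37 with all libraries and -0.08 without shControl replicate 2, in which it was at 76.6 CPM, against 42.0 to 48.6 CPM in the other 5 libraries. UQCRH, the highest of the complex per length, had -0.15 (95% interval -0.44 to 0.14).

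Complex IV, cytochrome c oxidase, had the narrowest span, from -0.26 to 0.004 over 11 genes. Its median was -0.23, and -0.09 without shControl replicate 2. COX7A2, a small structural subunit, had the smallest adjusted p. It was at 83.3, 85.4 and 74.3 CPM in shControl and at 65.7, 71.5 and 65.9 CPM in shPUS1, and the groups did not overlap. COX7A2 had a log2 fold change of -0.26 (95% interval -0.53 to 0.01, adjusted p = 0.215 by edgeR). COX8A was at 115.0, 166.7 and 126.2 CPM in shControl and at 113.5, 120.0 and 112.4 CPM in shPUS1. The groups of COX8A overlapped, and its log2 fold change moved from -0.24 to -0.07 when shControl replicate 2 was left out. COX5A was the other gene with groups apart, at -0.25 with all libraries and -0.09 without that one. COX4I1, which joins the catalytic core early in assembly, and COX6A1 had -0.16 and 0.004, the latter 0.06 without shControl replicate 2.

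Complex V, ATP synthase, had negative values for all 18 tested protein-coding genes and a median of -0.24. Without shControl replicate 2, 14 were negative and the median was -0.10. Its 3 c subunit genes encode the same mature protein of the rotor ring with different import sequences. ATP5MC2 (ENSG00000135390, chromosome 12, 53632726 to 53677408) was at 56.5, 89.4 and 61.9 CPM in shControl and at 46.5, 45.5 and 43.0 CPM in shPUS1, with the groups apart. ATP5MC2 had a log2 fold change of -0.62 ± 0.18 (SE; adjusted p = 0.0981 by edgeR), and -0.40 without shControl replicate 2 (adjusted p = 0.0236).

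ATP5MC1 (ENSG00000159199, chromosome 17, 48892765 to 48895871) was at 40.1, 89.1 and 40.8 CPM in shControl and at 36.8, 37.9 and 38.5 CPM in shPUS1. Its value in shControl replicate 2 was over 2 times that in any other library. ATP5MC1 had a log2 fold change of -0.59 with all libraries (95% interval -1.29 to 0.11) and -0.11 without that one (adjusted p = 0.437 by edgeR). ATP5MC3 was at 118.9, 156.5 and 103.4 CPM in shControl and at 112.3, 114.9 and 105.4 CPM in shPUS1, with overlap. For ATP5MC3 it was -0.19, and -0.01 without shControl replicate 2. Per length, ATP5MC3 had the highest mean of the 3 at 30.4 FPKM, with ATP5MC1 at 17.95 and ATP5MC2 at 14.6 FPKM.

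The F1 part of ATP synthase, where ATP is made, had values between -0.22 and -0.11. The head subunits ATP5F1A and ATP5F1B had log2 fold changes of -0.11 and -0.22, and the central stalk genes ATP5F1C, ATP5F1D and ATP5F1E had -0.15, -0.13 and -0.18. Without shControl replicate 2 the values in that order of the 5 genes were -0.02, -0.10, -0.10, -0.04 and 0.01, so that ATP5F1E turned in sign. ATP5F1B was at 532.8, 639.2 and 473.6 CPM in shControl and at 497.3, 468.4 and 446.0 CPM in shPUS1, with overlap. The peripheral stalk genes, which hold the head still, ran from -0.41 (ATP5PB) to -0.09 (ATP5PF), and ATP5PF was at 0.11 without shControl replicate 2. ATP5PB was at 298.1 CPM in shControl replicate 2 and at 153.1 to 182.6 CPM in the other 5 libraries, and its value without that library was -0.10. Of 5 small membrane subunits, ATP5ME had the most negative value, -0.60 (adjusted p = 0.154 by edgeR; -0.33 without shControl replicate 2), with 24.5, 35.3 and 19.1 CPM in shControl and 17.6, 17.4 and 17.3 CPM in shPUS1. ATP5IF1, the inhibitor of ATP hydrolysis, had -0.08 with overlap, and turned to 0.16 without that library.

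The position of each library was much the same for most complexes. For every gene, log2 CPM was taken relative to the mean of that gene over the 6 libraries, and the median over the 77 members was 0.12, 0.30 and -0.10 in shControl and -0.14, -0.16 and -0.03 in shPUS1. Thus shControl replicate 3 lay between shPUS1 replicates 1 and 3. shControl replicate 2 was the highest library for 59 of the 77 genes and the lowest for 1. For complex II it was at 0.02, below shControl replicate 1 at 0.17, and for complex V it was at 0.39, the highest of the complexes. Over all genes tested the 6 medians lay between 0.003 and 0.009.

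Other genes of protein supply to mitochondria and of the ribosome, set beside them, had medians of the same sign. The 78 mitochondrial ribosomal protein genes had a median log2 fold change of -0.37, with shControl replicate 2 at 0.44, and -0.18 without that library. The 82 cytosolic ribosomal protein genes had -0.37 and -0.30. The 13 subunits encoded in mitochondrial DNA had -0.14 with all libraries and -0.004 without shControl replicate 2, where 0.46 was the median position of that library. Of the 13, 9 were negative with all libraries and 7 without shControl replicate 2. With all libraries, none passed at an adjusted p under 0.05 by edgeR, DESeq2 or voom. By edgeR, 0 had an unadjusted p under 0.05. MT-CO3, a catalytic core subunit of complex IV, had -0.45 (adjusted p = 0.255 by edgeR) and -0.13 without shControl replicate 2. MT-ND1, a complex I subunit, had 0.11, and 0.34 without that library (adjusted p = 0.0502 by edgeR). With a trend on gene length (below) also removed, MT-ND1 passed at 0.42 (adjusted p = 0.022 by edgeR), beside 12.9% of all genes higher in that fit.

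**Figure D4:**
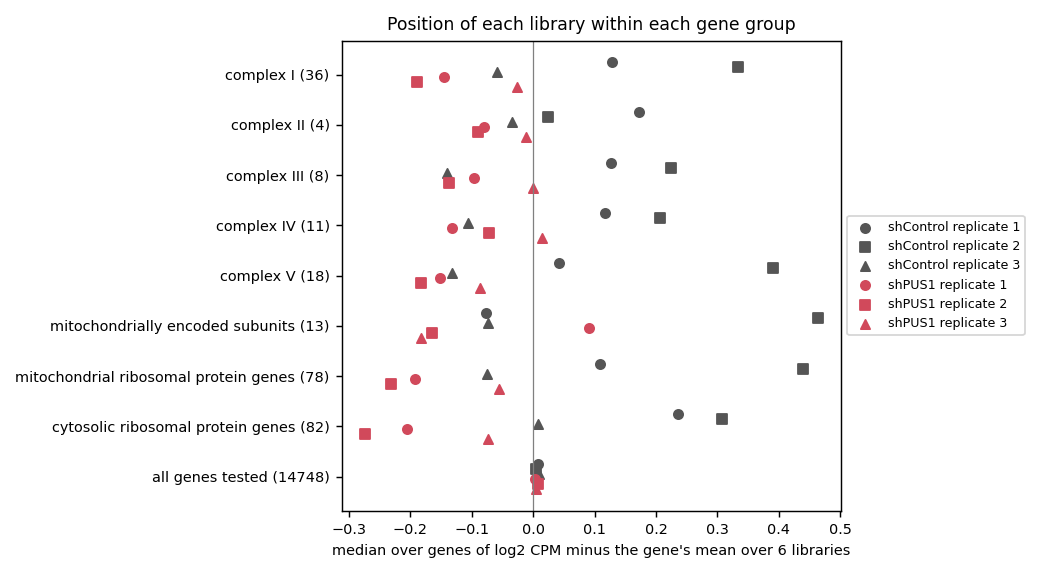
Median, over the genes of a group, of log2 CPM relative to the mean of the same gene over 6 libraries (horizontal), for each library (points, shControl in grey and shPUS1 in red) and each group with its number of genes. shControl replicate 2 (grey square) is the rightmost point in every group but complex II and all genes tested, and shControl replicate 3 (grey triangle) lies within the range of the shPUS1 points for complexes I, II, IV and V.

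Gene length moved with the libraries as well. The median listed exonic length was 2475 bases for the members and 4968 bases for all genes tested. A smoothed trend of log2 CPM on length, read at the members, was 0.096, 0.067 and -0.008 in shControl and -0.049, -0.070 and 0.003 in shPUS1. With the trend removed within each library, the median log2 fold change of the members was -0.15, and 67 of 77 were negative. With the trend removed and shControl replicate 2 left out it was -0.05, and 48 of 77 were negative, beside 50.7% of all genes. Complex I was then at -0.12, complex II at -0.05, complex III at 0.01, complex IV at -0.03 and complex V at -0.01, where all genes had a median of -0.007. The same 7 members (9.09%) were lower by edgeR in that fit, beside 10.3% of all genes, and 1, NDUFC2, was higher (log2 fold change 0.44, adjusted p = 0.0210), beside 12.9% of all genes. The part of length, of that library and of the hairpin in the shift of the members was not tested further.

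**Figure D5:**
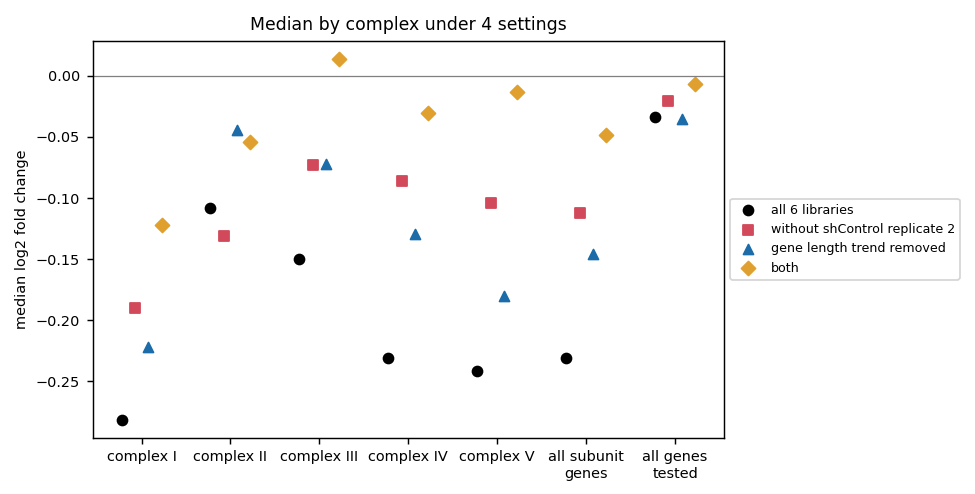
Median log2 fold change (vertical) of the tested protein-coding subunit genes by complex, of all of them, and of all genes tested, with all 6 libraries, without shControl replicate 2, with the gene length trend removed, and with both. The medians of all members run from -0.23 with all libraries to -0.05 with both, and complex I keeps the most negative value in each setting.

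Genes that assemble, vary or regulate the complexes were taken from lists written from general knowledge. With all libraries edgeR called 0 genes of any list at an adjusted p under 0.05. At an unadjusted p under 0.05, 10 of 54 tested assembly factors (18.5%, beside 12.8% of all genes) were lower (NUBPL of complex I, BCS1L, UQCC3 and LYRM7 of complex III, SCO1, COX15, COA4, COA5 and TACO1 of complex IV and ATPAF1 of complex V). In the other direction, 0 of the 54 assembly factors and 1 of 12 tested regulators, PPARGC1A, were higher, beside 12.6% of all genes. By voom with sample weights, LYRM7, COA4, COA5, TACO1 and TMEM242 were lower at an adjusted p under 0.05, which is 5 of the 54 assembly factors (9.26%, beside 9.48% of all genes). Voom called 1 of the 12 regulators, PPARGC1A, higher, beside 11.5% of all genes. Of 7 tested subunits with other names or only loosely bound, 6 were negative and 0 passed edgeR's test, with a median of -0.26 and -0.14 without shControl replicate 2. CYC1, the cytochrome c1 of complex III, was at 158.9, 185.3 and 158.7 CPM in shControl and at 143.8, 142.1 and 133.5 CPM in shPUS1, with the groups apart and a log2 fold change of -0.26 (adjusted p = 0.212 by edgeR). NDUFAB1, the acyl carrier protein of complex I, had -0.30, HIGD2A had -0.29 and CYCS, cytochrome c, had -0.45 with all libraries, and -0.19, -0.14 and -0.09 without shControl replicate 2. The tissue-specific or alternative forms COX4I2, COX6A2, COX7A1, COX7B2, COX8C and NDUFA4L2 were too low to be tested.

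Of 16 complex I assembly factors 15 were negative, with a median of -0.22 (-0.12 without shControl replicate 2), and 0 passed the test in any direction by edgeR with all libraries, by DESeq2 or by edgeR without shControl replicate 2. NUBPL, which delivers iron-sulfur clusters, was at 11.5, 12.7 and 10.8 CPM in shControl and at 9.35, 8.98 and 7.32 CPM in shPUS1, with a log2 fold change of -0.44 (adjusted p = 0.180 by edgeR). NDUFAF8, NDUFAF6 and TIMMDC1 had -0.91, -0.46 and -0.32, and -0.26, -0.12 and -0.25 without shControl replicate 2. The 4 complex II factors had a median of -0.05 (-0.17 without that library) and none passed by any of these fits. SDHAF2, which attaches the flavin to SDHA, had 0.29, SDHAF3 had -0.28, SDHAF4 had -0.21 and SDHAF1 had 0.11. SDHAF2, SDHAF4 and SDHAF1 were at 0.44, -0.53 and -0.15 without shControl replicate 2.

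All 6 complex III factors were negative, with a median of -0.47 and -0.27 without shControl replicate 2. LYRM7 (ENSG00000186687, chromosome 5, 131170944 to 131205428), which guides the Rieske protein UQCRFS1 into complex III, had the most negative value of all genes described here but PUS1. It was at 19.0, 33.0 and 20.2 CPM in shControl and at 9.35, 11.8 and 10.5 CPM in shPUS1, with the groups apart. LYRM7 had a log2 fold change of -1.18 ± 0.24 (SE; adjusted p = 0.0502 by edgeR), just short of the threshold. It fell without shControl replicate 2, by 0.89 on the log2 scale (adjusted p = 0.00462), and by DESeq2 with all libraries (adjusted p = 0.000564). BCS1L, which inserts the same protein, had -0.97 with all libraries and -0.43 without that one (adjusted p = 0.155 and 0.131 by edgeR), and UQCC3 had -0.76 and -0.31 likewise. UQCC1 had -0.16.

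Of 24 complex IV factors 18 were negative, with a median of -0.26. With shControl replicate 2 left out, 15 were negative and the median was -0.11. TACO1, an activator of translation of the mitochondrial COX1 mRNA, was at 27.7, 38.0 and 24.2 CPM in shControl and at 20.4, 18 and 20.3 CPM in shPUS1. On the log2 scale TACO1 stood at -0.61 (adjusted p = 0.109 by edgeR), and it passed without shControl replicate 2 (-0.41, adjusted p = 0.0421) and by DESeq2 (adjusted p = 0.0473). COX14 passed in the other direction without that library (0.51, adjusted p = 0.0381). COA4, COX15 and SCO1, the last 2 of which act in haem A synthesis and copper delivery, had -0.67, -0.41 and -0.37, and COA4 was at -0.39 without that library. Of the 4 complex V factors, ATPAF1, a chaperone of the beta subunit, had -0.56, ATPAF2 had -0.49 and TMEM70 had 0.14. The values without shControl replicate 2 were -0.35, -0.13 and 0.28. TMEM242 had -0.31 with all libraries and -0.47 without shControl replicate 2 (adjusted p = 0.351 and 0.0302 by edgeR).

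The 12 regulators of mitochondrial biogenesis had a median of -0.06, and 0 passed edgeR's test with all libraries. The sign of the median turned without shControl replicate 2, to 0.05, and 4 of 12 were negative in place of 8. PPARGC1A (ENSG00000109819, chromosome 4, 23755041 to 23904089), the coactivator PGC-1alpha, was at 8.51, 2.57 and 10.4 CPM in shControl and at 17.1, 19.2 and 18.1 CPM in shPUS1. The groups were apart, and shControl replicate 2 was the lowest library. PPARGC1A had a log2 fold change of 1.33 ± 0.43 (SE; adjusted p = 0.114 by edgeR). It rose without shControl replicate 2, by 0.92 on the log2 scale (adjusted p = 0.00451), and by DESeq2 with all libraries (adjusted p = 0.0199). Its sign was thus opposite to that of most subunit genes. GABPB1, a subunit of GABP, had -0.50 with all libraries and -0.10 without shControl replicate 2, ESRRA had -0.21 and TWNK, the mitochondrial DNA helicase, had 0.20.

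Of the 7 members lower without shControl replicate 2, 6 had a RefSeq promoter. Among these 6, 2 (33.3%), ATP5MC2 and NDUFA7, contained 1 of the 3 motifs, beside 43.8% of all members with a promoter.

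Neighbouring genes limit how far some values can be assigned. Of the 78 tested rows, 12 had 20% or more of the 100-base stretches of their transcripts in common with some other gene (GENCODE release 29). The largest shares were 59.4% for NDUFB8, 49.6% for NDUFA7, 41.7% for NDUFS7 and 41.5% for NDUFV2. Another gene overlapped 29 of the rows on the same strand and 42 on the opposite strand, and the sources used here do not say whether the counting used strand, so reads of such partners cannot be told apart. NDUFC1, NDUFB3, NDUFV1, NDUFA10 and ATP5MC2 shared between 0% and 4.91% of their stretches. With the counts of same-strand overlapping genes that share stretches added, edgeR's test again called 0 members, and the median was -0.23. The added genes included readthrough genes and also separate genes, such as PTPMT1 (for NDUFS3, from 4371 to 8013 counts over all libraries) and MGARP (for NDUFC1).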

How the data were processed

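The deposited table gives, per gene and library, estimated counts made by the authors without normalization (HISAT2 alignment and HTSeq 0.6.1, per the labels), of which 29.8% to 31.8% are not whole numbers, and FPKM computed by the authors from those counts, which were recomputed here to within 0.005. The genome build, strandedness and handling of multiply mapped reads are not given in the sources used here. Of the gene IDs, 58337 occur in GENCODE release 29, and 99.979% of these overlap its genes on the same chromosome, so coordinates are read as GRCh38. The study's methods name 3 libraries per group, and the knockdown columns of the table carry the number 2 before the replicate number; whether it numbers the hairpin is not given in the sources used here.

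Counts were rounded, filtered with filterByExpr (14748 genes left), scaled by TMM (factors 0.973 to 1.03) and compared with edgeR 4.0.16 (R 4.3.3) by the quasi-likelihood test over all 6 libraries, with a prior count of 2 and Benjamini-Hochberg adjustment over all genes tested. The biological coefficient of variation was 0.22. Alternatives used DESeq2 1.42.0 and limma 3.58.1, other normalizations, filters, units and gene lengths, a replicate block, added pseudogene or readthrough counts, and each library left out in turn. The added counts of same-strand genes came after seeing the data. So did the length trend removed together with shControl replicate 2, and the overlap count without that library. The scripts were tested on simulated data. Medians and counts by complex carry no test, since members are not replicates. Total counts per library (14241505 to 19625998) set the counting error only.

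The members, the lists and the tests were chosen with earlier results of these data known. The rule for named genes took PUS1, the 4 SDH genes, the member with the smallest adjusted p and the one with the highest mean FPKM in each other complex, and up to 4 genes of each list by adjusted p, 45 genes in all. Other members named, and COX14, COA5 and MT-ND1, were chosen after their values were seen. Values of 2 genes are not reported here by name.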

Additional observations from a re-analysis of the deposited data

How the results depend on the processing

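The count of members lower in shPUS1 was 0 with all libraries by edgeR and moved with the tool and the filter: 7 by DESeq2 (beside 5.56% of all genes), 9 by voom with sample weights (9.48%), 2 with no filter on low counts (1.95%), and 1 each with quantile normalization and limma (1.09%), with a mean FPKM of at least 5 (1.91%), and with limma on log2(FPKM + 1) (1.45%) and log2(FPKM + 0.1) (1.01%). It ran from 0 to 7 when single libraries were left out, with 7 only without shControl replicate 2, where an adjusted threshold was passed by 1330 genes lower instead of 124. With the length trend removed and shControl replicate 2 left out, 7 members were lower and 1 higher, and the median over the 78 tested rows was -0.056 in place of -0.23. That median ran from -0.32 to -0.12 over single libraries left out, and for complex IV from -0.297 to -0.0864. Other scalings, protein-coding genes only and added pseudogene counts left the count at 0, and no member passed with a log2 fold change of at least 1. The tested rows with groups apart and shPUS1 lower, 18 with ATP5MFP2, were 31 on deposited FPKM (beside 19.4% of all genes) and 32 on library totals without TMM (19.7%), and those higher were 4 without shControl replicate 2 in place of 1 (25.3% of all genes). The causes were not tested.

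Residuals of same-numbered libraries correlated at -0.05, -0.03 and -0.19, and no library matched its own number best. Residuals were taken from the mean of the 3 libraries of each group and so depend on each other. These correlations therefore cannot show whether the replicate numbers mark a shared batch. With the replicate block, 0 members were called, the median was -0.22, and calls over all genes fell from 124 lower and 256 higher to 0 and 18. PUS1 was at -1.53 with the block (adjusted p = 0.0969), -1.001 with limma on log2(FPKM + 1) (adjusted p = 0.0544) and -1.48 on log2(FPKM + 0.1) (adjusted p = 0.0514), and between -1.84 and -1.19 without single libraries (adjusted p of up to 0.253).

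None of the other 44 named genes passed edgeR's test with all libraries, so no call could be lost. Of 823 values for these genes, 784 stayed short of the threshold with the same direction, 29 newly passed it and 10 reversed. SDHA was -0.0501 by voom and -0.00954 with the length trend removed, and SDHB was 0.0542 with the length trend removed. SDHAF1 was -0.124 by voom. Without single libraries, SDHA ran from -0.0562 (without shControl replicate 2) to 0.190, SDHB from -0.136 to 0.0354, SDHAF1 from -0.150 to 0.282, SDHAF4 from -0.533 to 0.0633 and TMEM70 from -0.0298 to 0.280. Small counts limit genes such as NDUFA7, with 125 to 321 counts per library.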
